A study of Mus musculus with 20 samples.

Results

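Organoids of 3 sarcomatoid malignant mesothelioma (MM) lines (m28, m54 and m107) were compared with organoids of 3 biphasic lines (m5, m12 and m60), all grown in 3D culture. These 6 libraries are part of a series of 20 samples, of which 14 have a column in the deposited table. They were chosen by culture and by the histology that the study gives for the tumor of each line. Line m67, whose histology was not determined, was left out. Each line came from 1 tumor of 1 mouse and each library from 1 line, so that n = 3 lines per histology. All 6 mice were p53+/-. Lines m5, m12, m28, m54 and m60 arose after intraperitoneal crocidolite, an asbestos fiber, and m107 after NT-50, a carbon nanotube. The carbon nanotube is thus represented in the sarcomatoid group and absent from the biphasic group. RNA of the same 6 lines grown in 2D was available beside them. The organoid medium held EGF, R-spondin and Noggin, among other additions, and no serum, whereas the 2D cells grew with serum. Levels were given in CPM, which is the count of a gene relative to all reads of its library. Of 21884 genes in the table, the 11829 that reached 1 CPM in 3 or more of the 6 libraries were tested.

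MM is a tumor of the mesothelium, the flat cell layer that lines the body cavities. Mesothelial cells share features of epithelium, such as keratins, and of mesenchyme, such as vimentin. In pathology an epithelioid, a sarcomatoid (spindle-shaped) and a biphasic (mixed) form are told apart, and the passage from an epithelial to a mesenchymal state, epithelial-mesenchymal transition (EMT), is often used to describe the axis between them. EMT is driven by transcription factors of the ZEB, SNAI and TWIST families, which repress epithelial genes such as Cdh1, the gene of E-cadherin, through E-boxes in their promoters.

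Library totals were 11545825 to 15319961 reads in the sarcomatoid group and 20770483 to 53911770 reads in the biphasic group, so that depth went with histology. A count of 0 allows up to 3 reads, which is 0.0556 CPM in the deepest and 0.26 CPM in the shallowest of the 6 libraries, with counting error only. 2 labels were in doubt. The study calls m12 biphasic in its summary of the tumors but epithelioid where it shows organoids in culture, and it calls m5 biphasic in the first place but sarcomatoid in the second. The summed reads of 4 Y-linked genes were 0 for 3D m5 but 12572 for 2D m5, and they were 10773 for 3D m12 but 0 for 2D m12. The 2D libraries of m5 and m12 thus went against their 3D partners, and since both lines are grouped as biphasic, an exchange between them would leave the groups as they are. Low Y-linked reads were also found in other lines, with 0 in 3D m28 and 10 in 2D m28, and 171 in 3D m54 and 795 in 2D m54. With levels centered within each culture, 3D m5 correlated best with 2D m12 (r = 0.102) and 3D m12 with 2D m5 (r = 0.245).

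The library labelled 3D m12 stood apart from the other 5. Its correlation with them over the 11829 genes averaged r = 0.676, and the first principal component, with 42.3% of the variance, separated it from all others. The correlation across genes was 0.848 to 0.862 within the sarcomatoid group, 0.609 to 0.814 within the biphasic group and 0.682 to 0.876 between the groups. Library 3D m5 correlated best with 3D m54, a sarcomatoid library (r = 0.876), and 3D m60 correlated best with 3D m107, also sarcomatoid (r = 0.827). No biphasic library had another biphasic library as its nearest. These values describe libraries over the same genes, and genes are not independent replicates.

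Checked against defining markers, the 5 libraries other than 3D m12 carried mesothelial genes. Wt1, a transcription factor of the mesothelium, was at 410, 153 and 724 CPM in 3D m28, 3D m54 and 3D m107 and at 218, 0.0371 and 171 CPM in 3D m5, 3D m12 and 3D m60. Upk3b, a surface protein of mesothelial cells, was at 528, 291 and 1937 CPM in the sarcomatoid libraries and at 649, 1.06 and 90.6 CPM in the biphasic ones, always in the same order of lines. In 3D m12, 5 of the 12 mesothelial markers were at 0, among them Gpm6a, Bnc1 and Upk1b, while Msln, the gene of the surface antigen mesothelin, reached 647 CPM there. Calb2, the gene of calretinin, was at 0 in all 6 libraries. The same library held genes that the other 5 had at or near 0. Hnf4a, a transcription factor of liver and gut epithelium, was at 183 CPM in 3D m12 and at most 0.0536 CPM elsewhere. Pdx1, a transcription factor of pancreas and duodenum, was at 49.1 CPM in 3D m12 and at 0 in the other 5, and Wfdc2, a secreted protein of glandular epithelium, was at 510 CPM against at most 1.63 CPM. Of 26 secretory and gut epithelial genes in the table, 17 were highest in 3D m12. By these markers the mesothelial label did not hold for this library, and the results are given with and without it. In its histology of the tumors, the study scored m12 and m60 negative for both MSLN and WT1, and m54 negative for WT1. Those scores are of tumor tissue, whereas the values here are RNA of organoids. Of 12 macrophage markers 3 (Cd14, Cd68 and Csf1r) passed the filter, with Ptprc and Adgre1 under 1 CPM throughout. None of 8 endothelial markers passed it, although Kdr was at 28.7 CPM in 3D m107.

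No gene passed the test between the histologies. With limma on log2(CPM + 1) and Benjamini-Hochberg adjustment, 0 of 11829 genes (0%) had an adjusted p under 0.05, and the lowest adjusted p was 0.911. At an unadjusted p under 0.05 there were 283 genes higher (2.39%) and 259 lower (2.19%) in the sarcomatoid group. edgeR's quasi-likelihood test on the recovered reads called 0 genes as well, and DESeq2 on those reads called 58, of which 28 were higher and 30 lower. Without 3D m12, limma again called 0 genes, with a lowest adjusted p of 0.239 and 796 genes at an unadjusted p under 0.05. With 3 libraries against 3, an exact two-sided permutation test of 1 value cannot give a p below 0.1. The values that follow are therefore descriptions. A gene is called set apart where all 3 sarcomatoid libraries lay on one side of all 3 biphasic libraries. Of all genes tested, 622 were set apart with the sarcomatoid libraries higher (5.26%) and 632 with them lower (5.34%), together 10.6%. With 3 libraries against 3, a random order of the levels sets a gene apart with a probability of 0.1. The share of 10.6% is near that and is used only as a yardstick. Without 3D m12 the shares were 12% and 11.5%, over 5 libraries instead of 6. Fewer libraries are set apart more easily by order alone, so nothing is read from the rise.

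Library 3D m12 carried a large part of the differences. The log2 difference, sarcomatoid minus biphasic, was at least 1 in 1004 genes (8.49%) and at most -1 in 838 genes (7.08%). When 3D m12 was left out, 607 of the 1004 genes (60.5%) kept at least 0.5 of their difference, 245 kept less and 152 changed sign. Of the 838 genes lower in the sarcomatoid group, 654 (78%) kept at least 0.5 of it, 135 kept less and 49 changed sign. The filter removed genes high in 3D m12 alone but kept genes low in it alone, so the directions are not compared. With no filter, 35.9% of the higher and 41.6% of the lower genes kept less than 0.5 or changed sign without 3D m12. Leaving out any other library kept 81.9% to 98.9% of the genes. The lowest of these shares were 81.9% of the lower genes without 3D m28 and 87.9% of the lower genes without 3D m60.

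**Figure D1:**
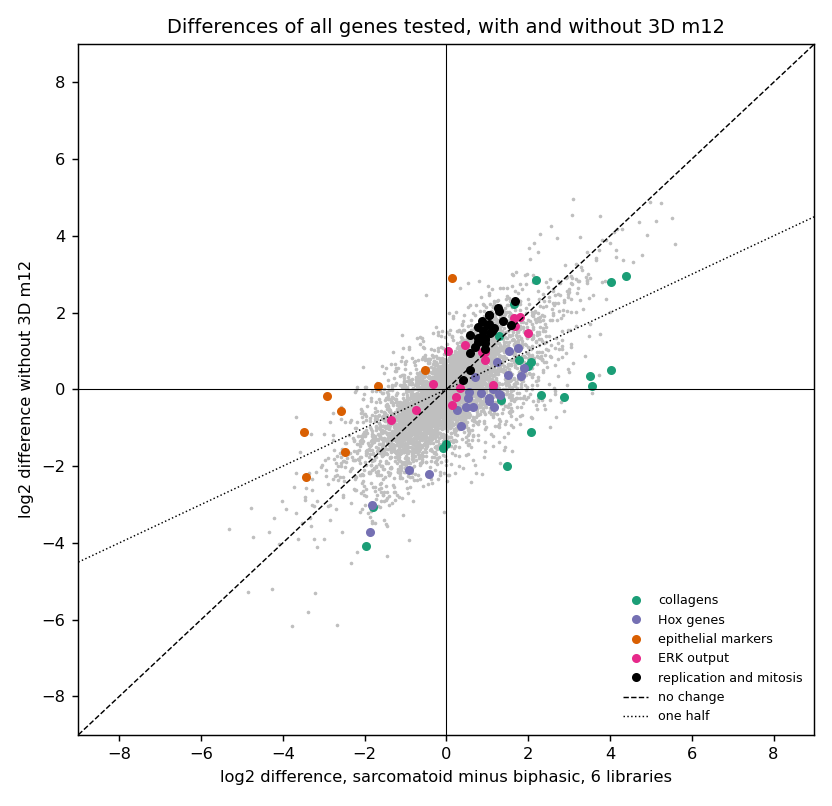
Each gray point is 1 of the 11829 genes tested, with its log2 difference (sarcomatoid minus biphasic, on log2(CPM + 1)) over 6 libraries on the x axis and over the 5 libraries without 3D m12 on the y axis, and colors mark 5 gene lists. Hox genes and most collagens lie below the dashed line of no change, with Col4a1, Col4a2 and Col18a1 above it, and most of the 28 replication and mitosis genes lie above it.

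The mesenchymal genes, which a comparison of sarcomatoid with biphasic tumors would look at first, belonged to the differences that rested on 3D m12. Of 12 fibroblast and mesenchymal markers 11 were tested. All 11 had a difference above 0, with a median of 1.61 against 0.03 over all genes tested, and none was set apart, against 10.6% of all genes. Without 3D m12 the median was -0.45, and 9 of the 11 changed sign. Vim, the gene of the intermediate filament vimentin, was at 813, 864 and 966 CPM in the sarcomatoid libraries and at 1504, 0.668 and 799 CPM in the biphasic ones. Its difference was 2.80 ± 2.44 (SE) with 6 libraries and -0.32 without 3D m12. Cdh2, the gene of N-cadherin, was at 112, 38.6 and 150 CPM against 196, 0.0371 and 72.3 CPM. The highest value of both genes was thus in the biphasic library 3D m5 and the lowest in the biphasic library 3D m12.

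Most collagens were lowest in 3D m12 as well, with the highest library differing from gene to gene. Of 20 collagen genes tested, 16 were above 0 and none was set apart, against 10.6% of all genes, and their median of 2.03 was 0.22 without 3D m12. Col1a2, which encodes a chain of type I collagen, was at 2404, 778 and 5398 CPM in the sarcomatoid libraries and at 2493, 0.0185 and 945 CPM in the biphasic ones. In 3D m12 that value stood for 1 read. Serpinh1, the collagen chaperone of the endoplasmic reticulum, was at 2320, 1089 and 1349 CPM against 1271, 0.0927 and 1046 CPM. Sparc, a matrix protein that binds collagen, was at 1914, 1317 and 4243 CPM against 2430, 0.185 and 2298 CPM, with a difference of 3.55 ± 2.87 (SE) that became -0.10 without 3D m12. For Col5a2, a chain of type V collagen, 3D m5 was low as well. It was at 254, 38.2 and 337 CPM against 1.5, 0 and 149 CPM, and 2.95 of its difference of 4.38 was left without 3D m12. Of the 21 collagens in the table, 17 were lowest in 3D m12.

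Hox genes, which encode transcription factors of position along the body axis, were next to absent from 3D m12. The 31 Hox genes of the list summed to 246, 311 and 183 CPM in the sarcomatoid libraries and to 362, 0.0371 and 323 CPM in the biphasic ones. In 3D m12, 29 of the 31 were at 0 and the other 2 had 1 read each. Of 24 tested, 20 were above 0 with a median of 0.94, and without 3D m12 the median was -0.18 with 12 changes of sign. Among the remaining 5 libraries the posterior member Hoxa9 was lower in the sarcomatoid libraries, at 1.92, 6.4 and 0.953 CPM in the sarcomatoid libraries against 75.8 CPM in 3D m5 and 26.3 CPM in 3D m60.

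**Figure D2:**
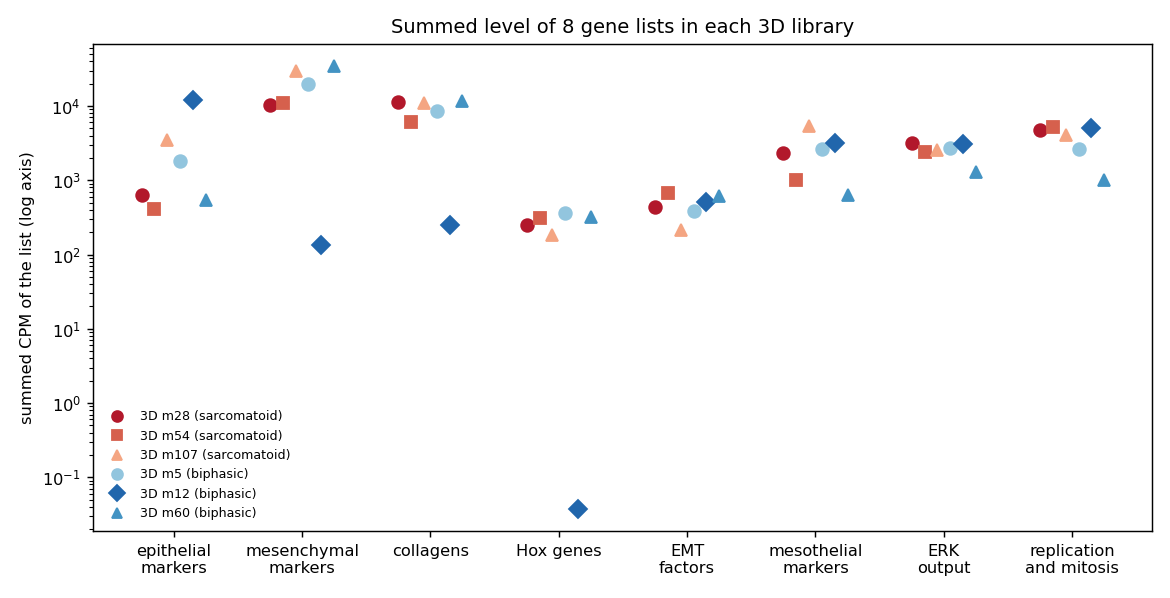
Each point is the CPM summed over the members of a list in 1 library, on a log axis, with sarcomatoid libraries in red shades and biphasic libraries in blue shades. In 3D m12 the Hox sum was 0.0371 CPM against 183 to 362 CPM elsewhere, whereas for replication and mitosis 3D m60 was the lowest library. The EMT factor sum of 505 CPM in 3D m12 includes epithelial members of that list, such as Esrp1 at 265 CPM.

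The EMT transcription factors Zeb1, Zeb2, Snai2 and Twist1 were lowest in 3D m12. Zeb1 was at 67.7, 69.8 and 68.9 CPM in the sarcomatoid libraries and at 84.4, 0.0556 and 46.8 CPM in the biphasic ones. Zeb2 was at 64.7, 55.9 and 35.4 CPM against 77.4, 0 and 127 CPM. Snai2, which encodes SLUG, was at 57.4, 11.7 and 4.33 CPM against 59.4, 0 and 90.9 CPM, and Twist1 was at 58.4, 97.1 and 7.88 CPM against 67.1, 0 and 36.7 CPM. None of these 4 genes set the histologies apart. Zeb1 was highest in 3D m5, and Zeb2 and Snai2 were highest in 3D m60. The list of EMT factors also holds factors of epithelial cells that were highest in 3D m12, such as Esrp1, Esrp2, Grhl1 and Grhl2. Of these, Esrp2 and Grhl1 passed the filter, so the median and the sum of the list mix both kinds. Of 11 listed factors tested, 1 was set apart (9.09%), which is no more than the 10.6% of all genes. This was Foxc2, a forkhead factor of mesoderm, at 23.9, 6.59 and 1.82 CPM against 1.07, 0.0927 and 0.289 CPM. Its difference was 2.51 ± 0.86 (SE), and 2.31 without 3D m12.

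Epithelial genes were highest in 3D m12. All 13 epithelial markers had their highest value there, and 5 of them (Epcam, Cldn4, Cldn7, Esrp1 and Grhl2) did not pass the filter because the other libraries had next to none. Epcam, the epithelial cell adhesion molecule, was at 430 CPM in 3D m12 and at most 1.47 CPM in the other 5. Esrp1, a splicing factor of epithelial cells, was at 265 CPM in 3D m12 and at most 0.0481 CPM elsewhere. Of the 8 tested, 7 were below 0 with a median of -2.54, and the median was -0.36 without 3D m12. Cdh1 was at 0.231, 6.85 and 3.64 CPM in the sarcomatoid libraries and at 1.53, 1062 and 22.2 CPM in the biphasic ones, with a difference of -3.48 ± 2.10 (SE) that was -1.11 without 3D m12. Keratins did not divide the remaining libraries by histology. Krt8 was at 1.54, 37.3 and 1222 CPM against 270, 2576 and 211 CPM, so that the sarcomatoid library 3D m107 exceeded 3D m5 and 3D m60. Without 3D m28, the library of lowest Krt8, the median of the epithelial markers was -1.06.

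E-boxes lie in most of the promoters of these genes that could be searched, and 3 promoters are shown because their genes separated 3D m12 from all other libraries. The E-box searched was CACCTG on both strands, which reads CAGGTG on the other, in the 250 bases before the start of each gene in the RefSeq annotation of build GRCm38.p6. Of the 13 epithelial markers 9 were matched, and 8 of these 9 genes (88.9%) held the E-box, against 19.4% of the 27025 genes with a promoter window and 17.2% of the 32851 windows. Cdh1, Krt19, Esrp1 and Grhl2 had no promoter window and were not searched. Cldn3 held no E-box, nor did another window of Cldn7 that is not shown. None of the 5 matched mesenchymal markers and none of the 18 matched Hox genes held it, while 2 of 17 collagens did. The sequences run 5′ to 3′ with the E-box in capitals, and such a match is a description of the letters and not a binding site.
Epcam, chr17:87635729-87635978, plus strand: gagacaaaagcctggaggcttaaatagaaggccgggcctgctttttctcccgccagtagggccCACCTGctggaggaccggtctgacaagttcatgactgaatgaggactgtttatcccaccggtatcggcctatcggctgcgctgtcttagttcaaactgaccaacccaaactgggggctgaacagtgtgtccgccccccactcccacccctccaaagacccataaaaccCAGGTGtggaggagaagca
Cldn4, chr5:134946935-134947184, minus strand: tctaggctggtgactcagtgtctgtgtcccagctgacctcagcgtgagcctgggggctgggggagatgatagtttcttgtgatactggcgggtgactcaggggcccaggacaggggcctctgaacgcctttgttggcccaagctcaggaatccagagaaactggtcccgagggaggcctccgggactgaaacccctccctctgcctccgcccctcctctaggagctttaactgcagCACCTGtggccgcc
Cldn7, chr11:69965171-69965420, plus strand: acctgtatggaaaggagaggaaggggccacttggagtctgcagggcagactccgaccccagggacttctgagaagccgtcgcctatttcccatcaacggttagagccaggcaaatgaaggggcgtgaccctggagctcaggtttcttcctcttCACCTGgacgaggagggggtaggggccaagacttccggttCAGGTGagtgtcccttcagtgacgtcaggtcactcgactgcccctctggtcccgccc
The E-boxes began 187 and 19 bases before the start of Epcam, 14 bases before that of Cldn4 and 97 and 57 bases before that of Cldn7. Cldn4 and Cldn7 encode claudins of tight junctions, at 197 and 338 CPM in 3D m12 and at most 0.0481 and 0.131 CPM in the other 5 libraries.

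Among mesothelial genes, part of the difference was left without 3D m12. Of 11 mesothelial markers tested, 8 were above 0, with a median of 2.40 that was 0.88 without 3D m12. Lrrn4, a leucine-rich repeat membrane protein, was at 140, 82 and 520 CPM in the sarcomatoid libraries and at 66.6, 0.111 and 2.89 CPM in the biphasic ones. Gata4, a zinc finger transcription factor, was at 181, 38.4 and 103.3 CPM against 29.7, 4.34 and 32.3 CPM. Both were set apart, which made 2 of 11 (18.2%) against 10.6% of all genes, with differences of 4.78 ± 1.52 and 2.37 ± 0.88 (SE) that were 3.50 and 1.51 without 3D m12. Msln went in the opposite direction, at 30.9, 64 and 143 CPM against 308, 647 and 64.8 CPM, and its groups overlapped through 3D m60. Cldn15, a claudin of mesothelial cells, was at 106, 41.7 and 194 CPM against 194, 0.278 and 8.76 CPM.

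Among genes whose groups were set apart, those of smallest p were taken first. By the rule for named genes, 15 were higher and 15 lower in the sarcomatoid libraries. Their direction was fixed by this choice, which also favors genes in which 3D m12 lay near the other biphasic libraries. Without 3D m12 each of the 30 kept at least 0.5 of its difference, and nothing is read from this. Emb (ENSMUSG00000021728, GRCm39 chr13:117345072-117414817) encodes embigin, a membrane glycoprotein that accompanies monocarboxylate transporters. It was at 118, 76.4 and 48.9 CPM in the sarcomatoid libraries and at 0, 0.167 and 6.21 CPM in the biphasic ones. Its difference was 5.25 ± 0.84 (SE), and 4.85 without 3D m12. Adam19, a membrane metalloprotease, was at 49.4, 13.8 and 12.2 CPM against 0.322, 0 and 0.77 CPM, a difference of 4.01 ± 0.66 (SE).

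Eln (ENSMUSG00000029675, GRCm39 chr5:134731445-134776322), the gene of elastin, was at 33.8, 17.2 and 113 CPM against 0.322, 0 and 2.07 CPM, a difference of 4.71 ± 0.81 (SE). Fbn2, which encodes the microfibril protein fibrillin-2 and was named after its values were seen, was at 18.5, 3.07 and 67 CPM against 0, 0.0185 and 0.0481 CPM. Loxl1, a lysyl oxidase that crosslinks elastin, was at 394, 129 and 174 CPM against 0.429, 0.0927 and 60.4 CPM, a difference of 5.51 ± 1.53 (SE) that was 4.47 without 3D m12. Eln and Loxl1 were highest in 3D m60 among the biphasic libraries, and Fbn2 had 0 or 1 read in each of them. Other genes of elastic fibers did not follow this order. Fbn1, Fbln5, Efemp2 and Lox overlapped between the groups, and Efemp1, which encodes fibulin-3, was set apart and lower, at 0.308, 67 and 39.5 CPM against 423, 241 and 827 CPM. Of 13 genes of matrix crosslinking tested, 3 were set apart (23.1%, against 10.6% of all genes), Loxl1 higher and Loxl4 and P4ha2 lower. Loxl4, another lysyl oxidase, was at 0.539, 12.4 and 3.72 CPM against 15.4, 53.4 and 27.7 CPM. P4ha2, a subunit of collagen prolyl hydroxylase, was at 29.1, 15.7 and 67.6 CPM against 109, 84 and 259 CPM.

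Other genes of this set encode nuclear cofactors, channels and the membrane skeleton. Vgll3, a cofactor of the TEAD transcription factors, was at 26.3, 6.53 and 64.9 CPM against 0, 0.0556 and 0.722 CPM. Cacnb2, a subunit of voltage-gated calcium channels, was at 22.1, 11.6 and 7.97 CPM against 0.0268, 0.519 and 0.289 CPM and had the smallest p of all genes, with a difference of 3.45 ± 0.54 (SE). Kcnq5, a potassium channel, was at 39.8, 14.2 and 13.6 CPM against 0, 0.0927 and 3.08 CPM. Sptb and Ank2, which encode beta-spectrin and the adaptor ankyrin-2 of the membrane skeleton, had differences of 3.45 ± 0.73 and 4.15 ± 0.91 (SE). Klhl29, Kctd15, Reep1 and Efs had differences of 3.82, 3.07, 4.17 and 3.00. Smaller and tighter differences were those of Nup93, a nuclear pore protein, at 211, 174 and 121 CPM against 56.6, 74.3 and 64.4 CPM, and of Tmem109, at 172, 218 and 185 CPM against 72, 88 and 101 CPM.

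Among the lower genes were several enzymes of metabolism and signaling. Sphk1 (ENSMUSG00000061878, GRCm39 chr11:116421751-116427501), the kinase that makes sphingosine 1-phosphate, was at 0.924, 3.59 and 1.39 CPM in the sarcomatoid libraries and at 17.1, 67 and 35.2 CPM in the biphasic ones, a difference of -3.68 ± 0.64 (SE). Selenbp1, a selenium-binding enzyme, was at 0.462, 5.22 and 3.2 CPM against 31.3, 305 and 70.5 CPM. Aldh3a1, an aldehyde dehydrogenase, was at 2.39, 8.55 and 10.7 CPM against 27.9, 70.3 and 186 CPM. Idh1, the cytosolic isocitrate dehydrogenase, was at 56.7, 62.3 and 68.3 CPM against 114, 267 and 167 CPM. Aldh3a1 was highest in 3D m60, and the other 3 of these genes were highest in 3D m12. Pdk1, the kinase that inhibits pyruvate dehydrogenase, had the narrowest groups, at 61, 76.6 and 75.2 CPM against 156, 160 and 158 CPM, with a difference of -1.15 ± 0.24 (SE). Pink1, a kinase of mitochondrial quality control, was at 14.7, 19.8 and 11.2 CPM against 38.4, 58.2 and 57.8 CPM.

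Further lower genes had various roles. Kitl, the ligand of the receptor KIT, was at 19.8, 19.3 and 20.5 CPM against 46.1, 123 and 78.6 CPM. The semaphorins Sema4a and Sema4g had differences of -2.32 ± 0.52 and -3.91 ± 0.97 (SE). Hs3st1, a heparan sulfate sulfotransferase, was at 2.31, 21.3 and 7.88 CPM against 71.9, 47.9 and 66.2 CPM. Ly6c1, a member of the Ly6 surface protein family whose copies are alike enough to share reads, was at 0, 0.457 and 0 CPM against 5.01, 39.9 and 6.4 CPM. Arrdc4, Ptpre, Sgsm1 and Myo7a had differences of -3.54, -2.60, -3.31 and -1.89.

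**Figure D3:**
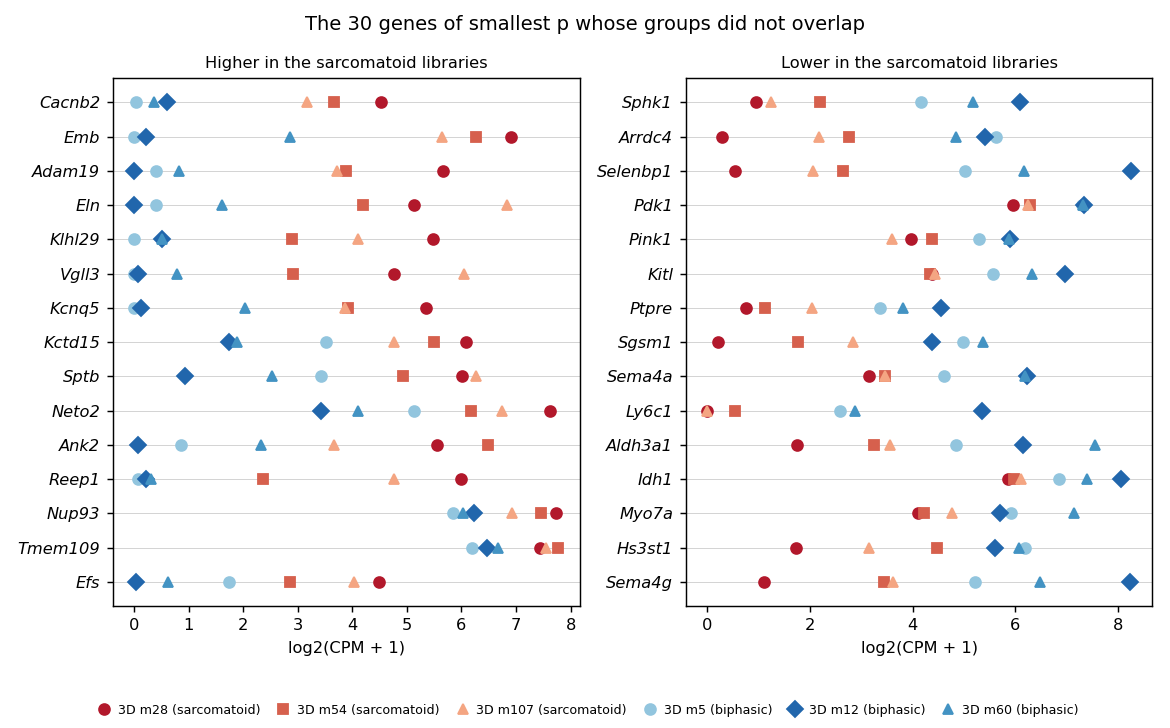
Each row is 1 of the 30 genes of smallest p with groups set apart, and each point is log2(CPM + 1) in 1 library, red shades for sarcomatoid and blue shades for biphasic. By the choice of the genes the red points lie on one side of the blue points in every row, with the gap wide for Emb (48.9 against 6.21 CPM at the nearest libraries) and narrow for Idh1 (68.3 against 114 CPM).

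The ERK output list, genes that are switched on by the MAP kinase ERK and in good part restrain it, held the largest share of members set apart among the lists described here with at least 10 tested members. ERK acts downstream of growth factor receptors such as EGFR. Of 16 members tested, 6 were set apart and higher in the sarcomatoid libraries (37.5%), none was set apart and lower, and 13 were above 0. The share of all genes set apart was 10.6%. Etv4 and Etv5, ETS transcription factors induced by ERK, were at 168, 92 and 181 CPM against 72.9, 42.5 and 26.6 CPM and at 213, 130 and 122 CPM against 69.4, 61.7 and 23.7 CPM. Their differences were 1.67 ± 0.46 and 1.66 ± 0.48 (SE). Dusp5 and Dusp6, phosphatases that inactivate ERK, were at 77.8, 97.9 and 241 CPM against 48.9, 39.8 and 21.3 CPM and at 233, 196 and 252 CPM against 190, 90.1 and 92.7 CPM. Spry4 and Spred2, inhibitors upstream of ERK, were at 89.1, 44.5 and 138 CPM against 42.2, 8.9 and 20 CPM and at 279, 79 and 127 CPM against 75.5, 74.8 and 67.2 CPM. In all 6 genes 3D m5 was the highest of the biphasic libraries. For Dusp6, Spry4 and Spred2 the gap between 3D m54 and 3D m5 was small, and with TMM scaling Dusp6 overlapped, which left 5 of 16 set apart (31.2%). The median of the list was 0.65, and it stayed between 0.41 and 0.98 when each library in turn was left out, with the lowest value without 3D m28 and 0.86 without 3D m12. Egfr itself was at 239, 102.9 and 170 CPM against 106, 77.7 and 145 CPM, with overlapping groups. Other members did not divide the groups, and Ccnd1, the gene of cyclin D1, was at 689, 487 and 181 CPM against 427, 1460 and 89.8 CPM.

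Of the genes of glutathione conjugation and targets of NRF2, the transcription factor of the response to oxidants, 24 were tested. Of these, 19 were below 0 and 5 (20.8%) were set apart, against 10.6% of all genes, all 5 of them lower and all 5 glutathione transferases, which couple glutathione to toxic compounds. The median was -0.74, and it was -0.59 without 3D m12, -1.08 without 3D m60 and -0.14 without both 3D m5 and 3D m12. Gsta4 was at 59.1, 38.4 and 82.7 CPM against 245, 848 and 141 CPM, a difference of -2.41 ± 0.68 (SE). Gsta3 was at 31.8, 0.261 and 7.88 CPM against 64.5, 540 and 42.9 CPM, and Gstt1 was at 1.62, 2.87 and 3.81 CPM against 5.95, 87.9 and 72.3 CPM. Gstp1 was at 149, 250 and 89.4 CPM against 299, 443 and 317 CPM, and Mgst1, the microsomal form, was at 30.2, 120 and 153 CPM against 213, 215 and 340 CPM. Gsta3 and Gstp1 have close copies in the genome, and reads shared between copies could have been lost or split. The other members of this list did not divide the groups. Targets of NRF2 outside the list were not examined as a group. Nqo1, a quinone reductase, was at 76.3, 19.6 and 44.3 CPM against 112, 10.999 and 10.977 CPM.

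**Figure D4:**
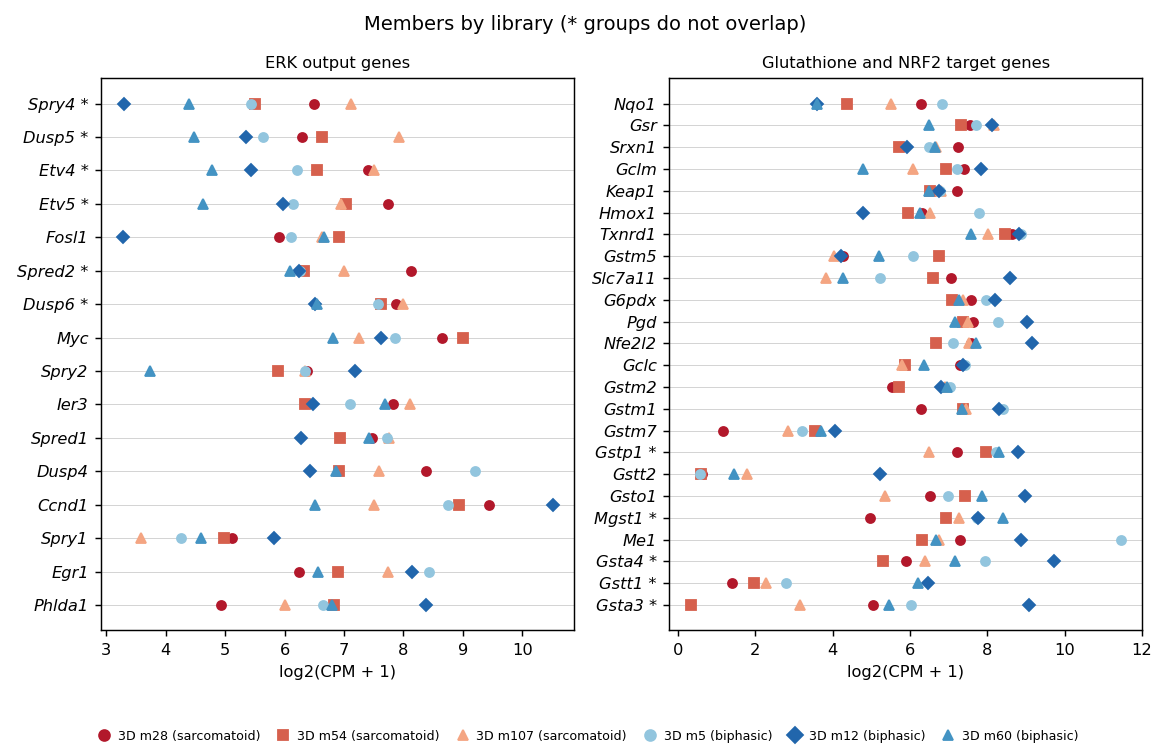
Each row is a member of the list and each point log2(CPM + 1) in 1 of 6 libraries, in red shades for sarcomatoid and blue shades for biphasic, with an asterisk where the groups do not overlap. Of the 16 ERK output genes 6 carry an asterisk, all higher in the sarcomatoid libraries, and of the 24 glutathione and NRF2 genes 5 do, all lower.

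ABC transporters are membrane pumps of which some export drugs. Of 20 tested, 3 were set apart and lower and 1 was set apart and higher in the sarcomatoid libraries, together 20% against 10.6% of all genes. Abcb1a, a gene of P-glycoprotein, was at 0.539, 5.09 and 0.78 CPM against 11.7, 8.57 and 37.2 CPM. Abcc4 and Abcc5, exporters of nucleotides and organic anions, were at 68.7, 61.2 and 45.3 CPM against 119, 199 and 116 CPM and at 175, 85.1 and 65.6 CPM against 201, 456 and 204 CPM. Their differences were -1.27 ± 0.33 and -1.41 ± 0.50 (SE). The higher one, Abce1, is a factor of ribosome recycling and not a pump, and it was at 423, 790 and 319 CPM against 295, 230 and 149 CPM. Genes of hypoxia and glycolysis had 24 of 27 members below 0, with a median of -0.40 that was -0.36 without 3D m12, -0.25 without 3D m54 and -0.11 without both 3D m5 and 3D m12. The 2 members set apart (7.41%, against 10.6% of all genes) were Pdk1 and Hk1, a hexokinase, at 79.8, 123 and 100 CPM against 127, 271 and 172 CPM.

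Of 28 genes of replication and mitosis tested, all 28 had a difference above 0, with a median of 0.95, and 5 of them (17.9%) were set apart, against 10.6% of all genes. In the others the groups overlapped. Here 3D m60 was the library on which the size rested. The median was 1.49 without 3D m12 and 0.29 without 3D m60. Mki67, the gene of the proliferation marker Ki-67, was at 457, 471 and 350 CPM against 189, 703 and 62.3 CPM, so that its highest level was in 3D m12. Ccne2, a cyclin of the entry into S phase, was at 38.5, 32.2 and 20.2 CPM against 10.9, 10.3 and 6.55 CPM. Mcm4, a subunit of the replicative helicase, was at 306, 278 and 192 CPM against 142, 149 and 106 CPM. Cdt1, which loads that helicase, was at 208, 149 and 111 CPM against 66.7, 99.7 and 27.8 CPM. These 3 genes of replication licensing and S phase entry kept differences of 1.38, 0.80 and 0.88 without 3D m60. Bub1b, a kinase of the mitotic checkpoint, was set apart as well but had 0.28 left of 0.95.

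For sterol and fatty acid synthesis, 3D m60 was again the library that moved the median most toward 0. Of 26 members tested, 25 were above 0 and 5 (19.2%) were set apart, against 10.6% of all genes, with a median of 0.88 that was 1.27 without 3D m12 and 0.29 without 3D m60. Srebf2, the transcription factor that drives the sterol genes, was at 768, 622 and 1082 CPM against 415, 527 and 219 CPM, a difference of 1.14 ± 0.42 (SE) that was 0.78 without 3D m60. Sc5d, an enzyme near the end of cholesterol synthesis, was at 160, 117 and 164 CPM against 92.6, 99.8 and 85.5 CPM. Cyp51, which removes a methyl group from lanosterol, was at 679, 370 and 426 CPM against 270, 358 and 62.7 CPM.

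**Figure D5:**
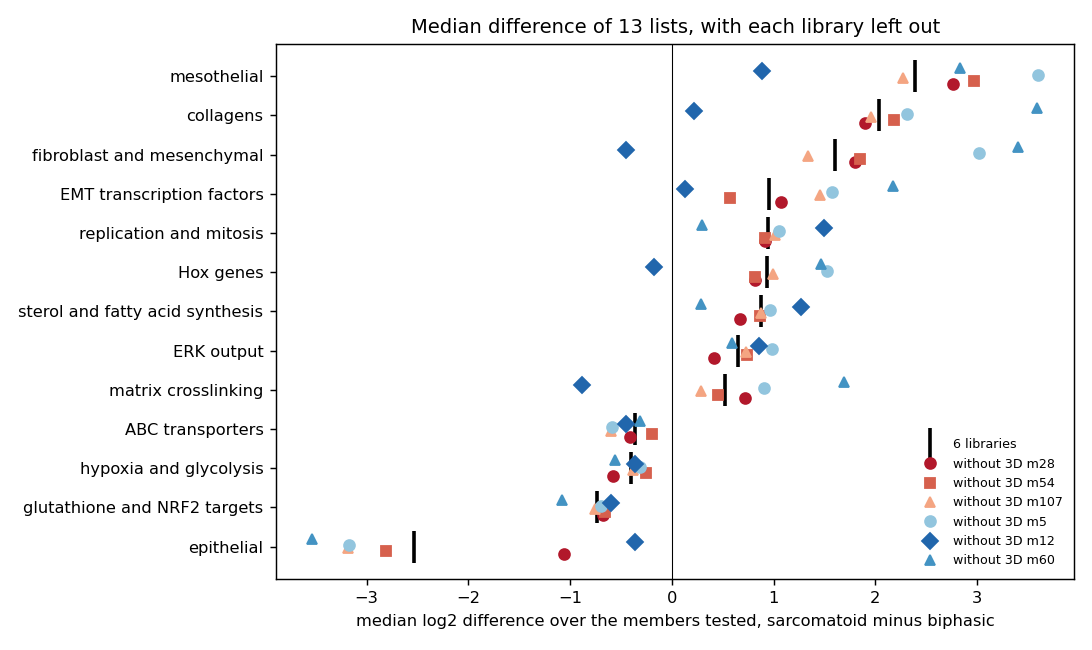
For 13 lists, the black bar is the median log2 difference (sarcomatoid minus biphasic) over the members tested with 6 libraries, and each colored point is that median with the named library left out. The point without 3D m12 lies far from the bar for collagens (0.22 against 2.03) and mesenchymal markers (-0.45 against 1.61), and the point without 3D m60 does so for replication and mitosis (0.29 against 0.95).

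In some genes 3D m12 lay with the sarcomatoid libraries and apart from 3D m5 and 3D m60. The genes of this paragraph were named after their values were seen, as those of small p without 3D m12. Fgf7, a growth factor of epithelial cells, was at 0.847, 2.42 and 2.51 CPM in the sarcomatoid libraries, at 142 CPM in 3D m5 and 281 CPM in 3D m60, and at 0.408 CPM in 3D m12. Hgf, the ligand of the receptor MET, was at 0.462, 2.55 and 0.346 CPM in the sarcomatoid libraries, at 40.5 and 134 CPM in 3D m5 and 3D m60, and at 0 in 3D m12. Mmp3, a secreted matrix protease, was at 22, 27.9 and 8.92 CPM in the sarcomatoid libraries against 2155 and 805 CPM, with 0 in 3D m12. In these genes 3D m12 was as low as the sarcomatoid libraries or lower. Masp1, Rbp4 and Ahsg followed the same order, with 164, 204 and 76.2 CPM in 3D m5, 284, 219 and 62.9 CPM in 3D m60 and at most 6.67, 15.5 and 4.68 CPM in the sarcomatoid libraries. In the other direction, Auts2 was at 92.3, 51.8 and 72.1 CPM in the sarcomatoid libraries and 60.3 CPM in 3D m12, against 5.74 CPM in 3D m5 and 2.12 CPM in 3D m60. The differences without 3D m12 were -6.16 for Fgf7, -5.29 for Hgf, -6.13 for Mmp3 and 3.96 for Auts2, and no adjusted p from limma was below 0.239. With all 6 libraries, DESeq2 called Fgf7 (adjusted p = 0.0058) and Masp1 (adjusted p = 0.036).

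Genes of drug uptake, growth factor reception and tumor suppression that were named for their place in the study did not divide the groups. Slc31a1, the copper transporter that takes up cisplatin, was at 70.2, 87.7 and 87.5 CPM in the sarcomatoid libraries and at 49.4, 93.4 and 58.6 CPM in the biphasic ones, a difference of 0.33 (95% confidence interval -0.45 to 1.10). Igf1r, the receptor of insulin-like growth factors, was at 37.6, 79.1 and 38.7 CPM against 67.3, 38.4 and 90.8 CPM, and Trp53 was at 166, 125 and 145 CPM against 138, 175 and 198 CPM. In all 3 genes the groups overlapped. The intervals leave room for differences in either direction.

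The difference between the histologies was then compared between the cultures, as the change from 2D to 3D within each line. The media differed between the cultures as well, which the study names as a limit of its expression data. Culture form and medium cannot be told apart here. No gene passed the interaction test with the line as a replicate block (0 of 11829, 0%, lowest adjusted p 0.691 with limma, 661 genes at an unadjusted p under 0.05). Neto2, an auxiliary subunit of kainate receptors, had the smallest p. In 3D it was at 197, 71.1 and 106.6 CPM in the sarcomatoid libraries and at 33.9, 9.68 and 16.2 CPM in the biphasic ones, whereas in 2D it was at 70.6, 33 and 33 CPM against 74.8, 26.4 and 39.7 CPM. The groups were thus apart in 3D and overlapped in 2D. Nup93 and Tmem109 likewise overlapped in 2D, at 204, 137 and 87.6 CPM against 163, 128 and 120 CPM and at 143, 215 and 155 CPM against 154, 176 and 215 CPM. Neto2, Nup93 and Tmem109 were among the genes named because their groups were set apart in 3D. Their overlap in 2D is therefore not read as a trait of 3D. The Vim and Cdh1 levels of 3D m12 had no counterpart in 2D m12 or 2D m5. Vim was at 4519 CPM in 2D m12 and 2115 CPM in 2D m5, and Cdh1 was at 2.57 and 2.26 CPM there, against 0.668 and 1062 CPM in 3D m12. In the sarcomatoid line m54, Cdh1 was higher in 2D than in 3D, with a log2 change of -4.73 from 2D to 3D.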

How the data were processed

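RNA of 6 organoid libraries (3 sarcomatoid and 3 biphasic MM lines, 1 library each) and of the same lines in 2D was analysed. According to the submitters' processing notes, quality was checked with FastQC 0.10.0, adapters were removed with Trim Galore 0.6.4, STAR 2.7.9a was used for alignment to GRCm39 and HTSeq 0.12.4 for counting. The authors deposited CPM, which summed to the same total in each library. Of the values above 0, 100% were whole multiples of 1 read within 0.001, and reads were recovered from them. The p-value and q-value columns that the authors deposited hold their comparison of the cultures, and the deposited ranking scores go with it. None of these was used. The 6 samples of normal mesothelial cells had no column and were not analysed here.

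The test was limma 3.58.1 (R 4.3.3, moderated variances with a trend) on log2(CPM + 1), over genes that reached 1 CPM in 3 or more of the 6 libraries. Adding 1 CPM understates differences of low genes. Benjamini-Hochberg adjustment was over these genes, with a threshold of 0.05. The interaction used the 3D minus 2D difference of each line. Lines pair the cultures because both carry the label of the same line. Of 6 3D libraries, 4 correlated best with the 2D library of their own line (r = 0.321 to 0.683). The exceptions were m5 and m12 (r = 0.050 and -0.076 with their own 2D library). Their pairing is in doubt, and the interaction rests in part on them. edgeR 4.0.16 and DESeq2 1.42.0 on recovered reads served as alternatives. Scripts were tested on simulated data. P values measure the spread between 3 lines per histology.

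The lines and the 42 gene lists were chosen with earlier results of these data known. The named genes were the 15 higher and 15 lower of smallest p with groups set apart and a mean of at least 5 CPM, the 10 higher and 10 lower of largest difference that rested on 3D m12, up to 4 members per list and direction, and 10 genes of the study. Those that the text needed were printed, and genes outside the rule are marked in the text or are markers of the lists.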

Additional observations from a re-analysis of the deposited data

Results flagged for a closer look

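In 7 of the 67 genes followed through all alternatives, the level went one way from 2D to 3D in every sarcomatoid line and the other way in every biphasic line. This held for 281 of the 11829 genes tested (2.38%), but genes among the 67 were chosen by their difference in 3D, which is part of the same contrast, so that nothing is read from the share. The differences between the log2 changes of the histologies, sarcomatoid minus biphasic, were 4.54 for Adam19, 2.65 for Neto2, 1.34 for Nup93, 1.24 for Tmem109, -2.72 for Hs3st1, 1.64 for Dusp6 and 1.42 for Cdt1. None passed the interaction test with limma, in which the lowest adjusted p of all genes was 0.691. The 2D libraries of m5 and m12 went against their 3D partners in Y-linked reads, and with them exchanged 5 of the 7 genes still had opposite changes. Neto2 and Dusp6 did not.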

How the results depend on the processing

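The comparison of the histologies gave 0 calls under every alternative run except DESeq2 on recovered reads, which called 58 genes. Of these 58, 54 were set apart, against 10.6% of all genes tested. The calls and the separation rest on the same 6 libraries, so the one is no separate support for the other. Leaving out each library in turn gave 0 calls each time, with a lowest adjusted p of 0.124 without 3D m60. Without 3D m5 and 3D m12, the deepest libraries, it was 0.323, with 3D m60 as the lone biphasic library assumed to vary like the others. No paired analysis was possible because each line has a single histology. The interaction gave 0 calls with and without the replicate block (lowest adjusted p 0.999 without it, 231 genes at an unadjusted p under 0.05), and 0 with 2D m5 and 2D m12 exchanged, an alternative chosen after seeing the data.

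The share of the higher genes that kept less than 0.5 of their difference or changed sign without 3D m12 was 39.5%, and it was 47.4% with a pseudocount of 0.1, 31% with 5, 35.9% with no filter, 45.2% at a mean of at least 10 CPM and 34.2% with quantile normalization. For the lower genes it was 22%, and it was 26.7% with a pseudocount of 5, 41.6% with no filter and 36% at a mean of at least 10 CPM. The filter removed genes high in 3D m12 alone, and without it the share was larger for the lower than for the higher genes. Of 67 genes, 64 kept their direction in every alternative. Many of them were chosen because their groups were set apart. Such genes cannot turn when libraries are left out or the pseudocount is changed, so nothing is read from this count. Msln was at 0.020 without 3D m5 and 3D m12, and Cdh2 at -0.23 with array weights. With each library left out in turn, Cdh2 ran from -0.45 without 3D m12 to 3.33 and Vim from -0.32 without 3D m12 to 4.59. Of 13 list medians, 8 kept their direction throughout. With edgeR those of EMT factors (-0.24), a list with epithelial members as well, and matrix crosslinking (-0.28) turned. Those of mesenchymal markers and collagens were 0.17 and 0.33. Without 3D m5 and 3D m12 these 4 and Hox genes (-0.41) were below 0, and glutathione genes were at -0.14. The depth of the sarcomatoid libraries limits what can be said of genes near 0.26 CPM.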

Other observations

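A few gene groups outside the comparisons described above had members whose groups were set apart. Among actin genes, Srf, the transcription factor of actin and smooth muscle genes, was at 109, 143 and 80.4 CPM in the sarcomatoid libraries and at 76.5, 59.7 and 43.7 CPM in the biphasic ones. Vcl, the gene of the focal adhesion protein vinculin, was at 308, 308 and 980 CPM against 210, 174 and 233 CPM, and Tpm2, a tropomyosin, was at 120, 318 and 139 CPM against 93.9, 5.58 and 83.2 CPM. Of 14 actin and smooth muscle genes tested, these 3 were set apart (21.4%), against 10.6% of all genes. The median of the list was 0.81, and 0.18 without 3D m12.

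Single members of other lists were set apart and lower in the sarcomatoid libraries. Lcn2, which encodes the iron-binding protein lipocalin-2, was at 7.01, 25.8 and 9.44 CPM against 140, 69.8 and 1626 CPM. Cd14, the co-receptor of lipopolysaccharide, was at 1.23, 8.09 and 5.2 CPM against 9.76, 196 and 45.1 CPM. It is 1 of 3 macrophage markers tested, all 3 of which were below 0, with overlapping groups for Cd68 (-0.63) and Csf1r (-0.74). The 12 macrophage markers summed to 5.62 to 17.8 CPM in the sarcomatoid and 23.5 to 204 CPM in the biphasic libraries. Cd14 alone made up 9.76, 196 and 45.1 CPM of the sums of 23.5, 204 and 63.6 CPM in 3D m5, m12 and m60. The sums are thus not read as macrophage content. The part of these markers in the other differences was not tested. Ly6a, a surface protein named after its values were seen, was at 0.154, 0.457 and 0.26 CPM against 8.36, 539 and 26.1 CPM.

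Of all genes tested 10.6% were set apart. Of 28 genes of semaphorins, ephrins and axon guidance 4 were (14.3%), and of 15 genes of the Cdkn2a locus and Rb axis 2 were (13.3%). None of 26 genes of oxidative phosphorylation and none of 24 genes of the Wnt pathway was, with medians of -0.18 and 0.19. Of 20 interferon-stimulated genes and of 24 genes of copper and iron handling, 1 each was set apart. Within the biphasic group, Me1, the cytosolic malic enzyme, was at 2809 CPM in 3D m5 and at 467 and 101 CPM in 3D m12 and 3D m60.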
